A study of Rattus norvegicus with 6 samples.

Results

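Nat8 and Cml3 are related genes of the camello family of N-acetyltransferases, and their RNA was measured here in the kidneys of low birth weight (LBW) rats and controls. They were chosen from the study's list of mRNAs that differed between these same LBW and control arrays by at least 2-fold with an unadjusted p of at most 0.05, and they are 2 of the 100 genes that carry a symbol in that list. The values below that compare LBW with control for these genes are therefore the values that chose them, and are given as a description with no test. Each gene had 1 probe in the list, and each probe had 1 spot per array.

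The animals were male Sprague Dawley rats at postnatal day 10, in 2 groups of 3, with 1 kidney array per rat. The groups differed in what the dam ate. For LBW rats this was low in protein during all of pregnancy and while she nursed them to day 10. For controls, whose birth weight was normal, it held normal protein. The labels do not give the litter of a rat, so the spread between arrays may hold litter effects, and p values measure only the spread between these samples.

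Nat8 encodes a cysteine S-conjugate N-acetyltransferase of the endoplasmic reticulum, which carries out the last step of mercapturic acid synthesis, the route by which glutathione conjugates are prepared for excretion in urine. It is known in kidney as an enzyme of the proximal tubule, the nephron segment that takes back most of the filtered solutes and clears organic anions. The camello genes of rodents are a cluster of close relatives of Nat8. In RefSeq (GRCr8), Nat8 has the synonyms CCNAT and Cml4. The other symbols there that begin with Nat8 are Nat8f3, Nat8f5, Nat8-ps1, Nat8f2, Nat8f4, Nat8f1, Nat8b and Nat8l. Of the members, 1 of 2 was matched there, Nat8, by its symbol, which is also listed as a synonym of Nat8b. Cml3 is kept under the name given by the study.

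Nat8 was lower in LBW kidneys. Its quantile-normalized log2 intensity was 10.76, 10.46 and 10.31 in control rats 1 to 3, and 9.27, 9.38 and 9.50 in LBW rats 1 to 3. The LBW values lay close together, and the groups did not overlap: the lowest control lay 0.82 above the highest LBW value on the log2 scale. The group means were 10.51 ± 0.23 (SD, n = 3) in controls and 9.38 ± 0.11 (SD, n = 3) in LBW rats. The log2 difference, LBW minus control, was -1.13 with a standard error of 0.14 from limma, a 2.19-fold lower intensity in LBW rats. This was near the 2-fold threshold of the list, and 1 standard error below the estimate the fold was 1.99.

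Cml3 was also lower in LBW kidneys, by more. Its log2 intensity was 8.46, 8.54 and 8.16 in control rats 1 to 3, and 5.36, 5.67 and 5.83 in LBW rats 1 to 3. Every LBW value lay below every control value, and the gap of 2.33 between the nearest arrays of the groups exceeded the range of 0.39 among controls and of 0.47 among LBW rats. The means were 8.39 ± 0.20 (SD, n = 3) and 5.62 ± 0.24 (SD, n = 3). The log2 difference was -2.77 with a standard error of 0.16, a 6.82-fold lower intensity in LBW rats. With normexp background correction it was -1.93, or 3.80-fold. Kidney was measured as whole tissue, so fewer of the cells that hold these RNAs and less of these RNAs per cell cannot be told apart.

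**Figure D1:**
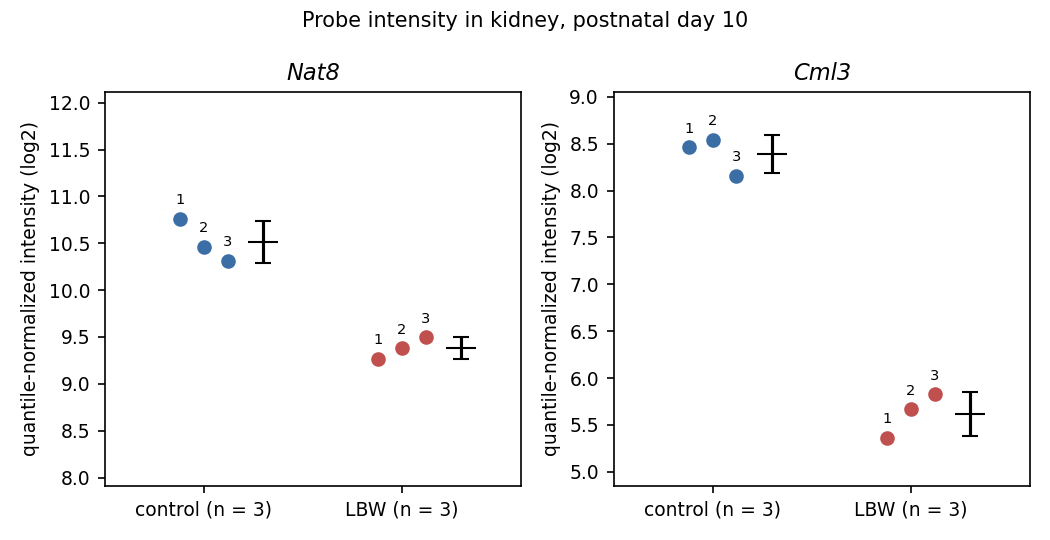
Quantile-normalized log2 intensity (vertical axis) of the Nat8 probe (left) and the Cml3 probe (right) on each array, with control rats in blue, LBW rats in red and the replicate number above each point; black bars are the group mean and SD (n = 3), and both panels span the same number of log2 units. For Nat8 the highest LBW array is at 9.50 and the lowest control at 10.31, and for Cml3 these are 5.83 and 8.16.

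The spread between arrays of a group lay between the quartiles of all tested probes for both genes. The SD within groups, pooled over both groups, was 0.18 for Nat8 and 0.22 for Cml3 on the log2 scale, and over the 33608 tested probes its median was 0.16 and its quartiles were 0.11 and 0.24. The log2 difference of Cml3 minus that of Nat8 was -1.64. The difference between the log2 values of both genes within an array had an SD of 0.19 among controls and 0.13 among LBW rats. With normexp background correction, which adds an offset of 50 to every intensity, it was -0.84, so the size of the unequal change depended on how background was treated near the low end of the scale.

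Both probes stood above background on every array. The processed signal of Nat8, before normalization between arrays, was 1929, 1356 and 1276 in control rats 1 to 3 and 655, 703 and 577 in LBW rats 1 to 3. The mean signal of its spot was 81.8 to 117 times the local background in controls and 37.2 to 45.3 times in LBW rats. Nat8 was thus measured far from the background in both groups. For Cml3 the processed signal was 400, 358 and 281 in control rats 1 to 3 and 43.7, 53.2 and 46.8 in LBW rats 1 to 3. Its spot was 18.4 to 27.5 times the local background in controls and 3.71 to 4.44 times in LBW rats. The LBW values of Cml3 were the only ones of these near background.

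The scanner software flagged both probes as well above background on 3 of 3 control and 3 of 3 LBW arrays, and as saturated or an outlier on 0 of them. The software's error for the processed signal was 10.0% for Nat8 on every array and 10.5% to 10.6% for Cml3 in LBW rats. It did not find the Cml3 spot by itself on LBW 2 and LBW 3 and found it on LBW 1. After normalization the log2 values of Cml3 were 5.36 on LBW 1, 5.67 on LBW 2 and 5.83 on LBW 3. The array with the found spot was thus the lowest of the group. LBW 3 was the dimmest array, with a median processed signal of 69.0 over all spots against 81.3 to 94.4 on the others. Without normalization between arrays, an alternative chosen after seeing the data, the log2 difference was -1.22 for Nat8 and -2.84 for Cml3.

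The row of the slide was partly tied to the group. All arrays lay on 1 slide, with the 3 controls and LBW 1 in row 1 and LBW 2 and LBW 3 in row 2. With the row taken as a block, the log2 difference was -1.24 (standard error 0.21) for Nat8 and -3.03 (standard error 0.20) for Cml3. Within row 1 alone, LBW 1 against the 3 controls, the differences were -1.24 and -3.03, the same comparison in effect, since row 2 held LBW arrays only. After quantile normalization the LBW 1 values were the lowest of their group for both genes, while the processed signal of Nat8 was lowest in LBW 3.

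The sequences of the probes are shown because they are what was measured under each name. Capitals mark the longest run that each 60-base probe shares with any of the 40350 other probes on the same strand.
Nat8: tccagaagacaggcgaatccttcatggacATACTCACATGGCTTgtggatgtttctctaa
Cml3: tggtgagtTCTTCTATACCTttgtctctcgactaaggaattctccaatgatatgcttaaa
The run is 15 bases long for Nat8 and 12 bases long for Cml3, and each is found in 1 other probe. The longest run that the Nat8 and Cml3 probes share with each other is 5 bases. The G and C content is 45.0% for Nat8 and 36.7% for Cml3. Whether either probe also binds RNA of other camello genes was not tested, since their transcripts were not given here.

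The 2-fold threshold had no gap around it. Among probes lower in LBW rats with an unadjusted p of at most 0.05 from limma, the log2 difference just inside 2-fold was -1.001 and the one just outside was -0.997. Past both thresholds and lower in LBW rats were 152 of 33608 tested probes (0.452%). At an adjusted p under 0.05 from limma, 48 probes were called (0.143%), of which 32 were lower in LBW rats (0.0952%) and 16 higher. Control and LBW values did not overlap, with LBW lower, for 4086 probes (12.2%). Both members are among the latter, and since the members were chosen by this contrast nothing is read from it.

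Likeness was taken as Pearson's r over the 6 arrays with the other probes that have a symbol, as a description with no test. All of these were chosen by the study on the same contrast, and the arrays fall into 2 separate groups, so r over all 6 arrays mostly follows the group difference. Among the 5 highest for Nat8 were Cml3 (0.98), Aadac (0.98), Caprin1 (0.98) and Clrn3 (0.98). Aadac is a deacetylase of the endoplasmic reticulum. Among the 5 highest for Cml3 were Olr666 (0.99), Aadac (0.99), Nat8 (0.98) and Ugt2b (0.98). Of all 33536 probes compared, with or without a symbol, 0.573% reached the r of Clrn3 with Nat8. For the r of Ugt2b with Cml3 the share was 0.203%. The probes of Olr666, Aadac and Ugt2b were well above background on 0 of 3 LBW arrays.

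With the group means taken out, the order of likeness was another. Nat8 was then most like Ldoc1 (0.98), RGD1565779 (0.97), RGD1309903 (0.96), Olr1331 (0.89) and Timm8a2 (0.87). Cml3 was most like Prom2 (0.96), LOC100911005 (0.85), Mapk10 (0.84), Mapk4 (0.79) and Vom1r26 (0.78). The probes of Ldoc1, LOC100911005 and Vom1r26 were well above background on 0 of 3 control arrays, that of Olr1331 on 1 of 3, and that of Mapk10 on 2 of 3 LBW arrays, so these values rest partly on signal not well above background. No gene was in both of these sets of 5. Values as high were common: 5.05% of the 33536 probes compared reached the 0.87 of Timm8a2 with Nat8, and 4.60% reached the 0.78 of Vom1r26 with Cml3. Between Nat8 and Cml3 the centred r was 0.69.

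Other genes of the proximal tubule were taken from a list of 101 genes, of which 12 have a probe with a symbol here, 15 probes in all. The probes of the other listed genes carry no symbol in the sources used here and were not analysed. The 12 genes were chosen by the study on these arrays for a 2-fold difference, so their direction is not independent evidence. Of all 108 probes with a symbol, 79 were lower in LBW rats. All 15 proximal tubule probes were lower, past 2-fold and an unadjusted p of 0.05. Their median log2 difference was -1.21 against 0.00 over all tested probes, a gap that follows from the choice of genes past 2-fold. Over the probes well above background on all 6 arrays the median was -1.19, and with normexp background correction it was -0.82 over the 15 probes, short of 2-fold. At an adjusted p under 0.05 from limma, 5 of the 12 genes were lower, beside 0.0952% of all tested probes, and since the genes were selected for a 2-fold difference nothing is read from that count. Of the 5, Hnmt entered the test through the control arrays alone. With the slide row as a block the median was -1.18 and limma called 0 of the 12 genes (12 at an unadjusted p under 0.05, beside 2561 of all 33608 tested probes). With control 2, control 3 or LBW 3 left out limma also called 0. With control 1, LBW 1 or LBW 2 left out it called 1. Of all tested probes it called between 3 and 25 in these fits. At an unadjusted p under 0.05 were 12 genes each time. Beside them stood from 3484 of 33699 tested probes (without LBW 1) to 5224 of 33806 (without control 1). The study had chosen these genes by an unadjusted p on these arrays, so nothing is read from the 12.

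The 5 genes were enzymes and membrane proteins. Hnmt, histamine N-methyltransferase, was at 4.69 in controls and at 2.39 in LBW rats, where its probe was well above background on 0 of 3 arrays. Against a floor, the lowest value of any probe well above background on an array, it was 4.53-fold lower (adjusted p = 0.0128 from limma). On LBW 1 and LBW 3 it lay at 2.49 and 2.69, above the floors of 2.14 and 2.23, yet without the flag. The 4.53 is therefore not a strict lower limit. Hnmt entered the test through the control arrays alone, so nothing is read from that p. With normexp background correction its log2 difference was -0.41. Agxt2, a mitochondrial aminotransferase, had a log2 difference of -1.39 (standard error 0.11, adjusted p = 0.0128), and Dmgdh, dimethylglycine dehydrogenase, of -1.40 (standard error 0.15, adjusted p = 0.0287). Slc15a1, a transporter of small peptides, was at -1.39 (standard error 0.12, adjusted p = 0.0160) with 1 of its 3 probes and did not pass with the others, at -1.21 (well above background on 1 of 3 LBW arrays, and -0.23 with normexp) and -1.05. Clrn3 was at -1.18 (standard error 0.13, adjusted p = 0.0287), and at -0.79 with normexp. For each of these, every LBW array was below every control array.

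The remaining 7 genes did not pass the adjusted threshold. Acmsd, of tryptophan breakdown, was at a log2 difference of -1.45 (adjusted p = 0.0565 from limma). Cyp24a1, the vitamin D 24-hydroxylase, was at -2.05 and -1.79 with its probes, with wide standard errors of 0.51 and 0.40, and the first of these was well above background on 2 of 3 LBW arrays. With normexp its probes were at -0.70 and -0.82. Fmo1 was at -1.19, Tmigd1 at -1.15, Folh1 at -1.13 (-0.51 with normexp), Bhmt at -1.03 and Ugt2b7 at -1.02, the last well above background on 1 of 3 LBW arrays and at -0.16 with normexp. Every LBW array was below every control array for each of these probes too, as it was for 12.2% of all tested probes.

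**Figure D2:**
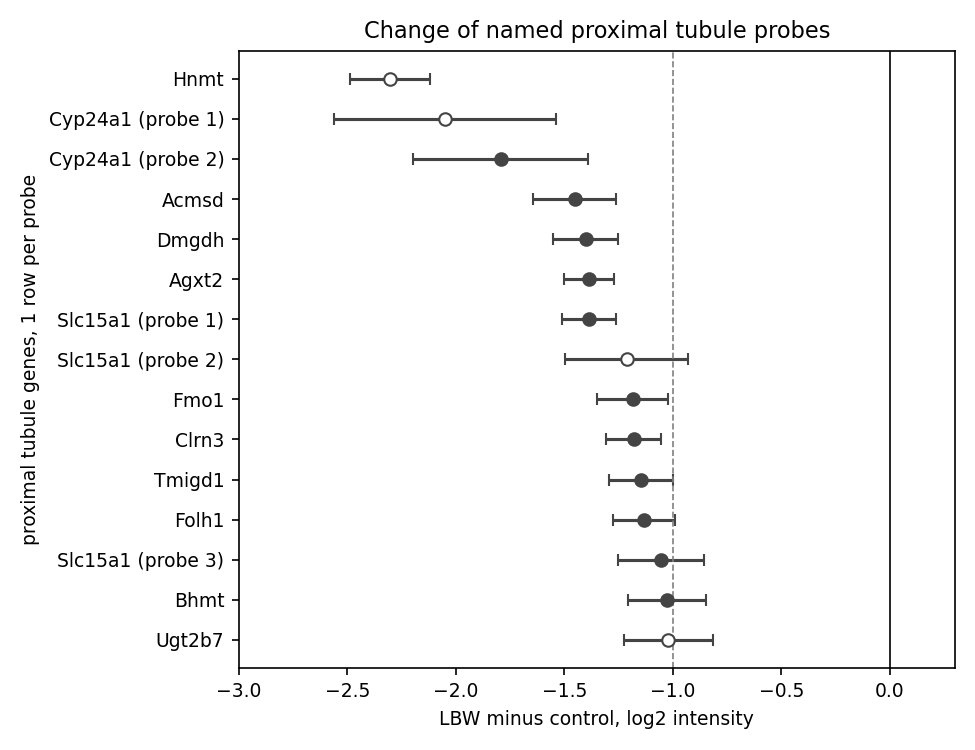
Log2 difference, LBW minus control (horizontal axis), of the 15 probes of 12 listed proximal tubule genes (vertical axis), with the standard error from limma as bars; filled points were well above background on all 3 LBW arrays, open points were not, and the dashed line marks 2-fold. The filled points run from -1.79 for Cyp24a1 to -1.03 for Bhmt, the point of Hnmt is a measured difference that rests on LBW values not well above background, and all of these genes were selected by the study for a difference of at least 2-fold.

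Of 40 listed genes of the mercapturic acid pathway, such as the glutathione transferases, and of the camello genes other than Nat8 and Cml3, 0 have a probe with a symbol here, and they were not analysed. Lists for other cells of the kidney held 105 genes, of which 4 have a named probe. They include S100a8 and Lyz2 of immune cells and the cell cycle gene Ect2. All 4 were lower in LBW rats, as were 79 of all 108 probes with a symbol. Their median log2 difference was -1.17 against 0.00 over all tested probes, a gap that follows from the choice of genes past 2-fold. At an adjusted p under 0.05 limma called 0 of the 4. At an unadjusted p under 0.05 were 4, beside 5048 of 33608 tested probes. With normexp 3 were, beside 5381 of 33608. Lyz2 was at -1.25 and Ect2 at -1.10, and with normexp they were at -0.72 and -0.35. S100a8 was well above background on 0 of 3 LBW arrays and entered the test through the control arrays alone. Against the same floor as for Hnmt, S100a8 was 1.98-fold lower (adjusted p = 0.113 from limma, from which nothing is read). That fold is not a strict lower limit either, and the log2 difference of S100a8 with normexp was -0.13. These genes too were chosen by the study on these arrays, and nothing is read from their counts. Their part in the values of Nat8 and Cml3 was not tested, and the 6 lists for podocytes, loop of Henle, distal tubule and collecting duct, nephron progenitors, stroma and endothelium had no named probe.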

How the data were processed

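Kidney RNA was labelled with Cy3 and hybridized to Agilent arrays. Images were read by the authors in Feature Extraction 10.7.1.1, and the deposited scanner values are, per spot, an intensity that is background-subtracted and detrended, raw intensities of spot and background, and other values such as flags of 0 or 1. The authors also deposited log2 values, quantile normalized in GeneSpring GX. Set against the log2 intensities of each array these had slopes between 0.988 and 1.02, so their scale is log2, and the median of every column was 6.88.

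Here quantile normalization was run on the processed intensities of 61411 non-control spots. Values under 1 were raised to 1 before taking log2, spots with an outlier flag were dropped, and repeated spots were averaged. A probe entered the limma 3.58.1 test (R 4.3.3; lmFit, eBayes, two-sided) if in either group every array had at least a 0.5 share of its spots well above background. P values were adjusted by Benjamini-Hochberg over all tested probes. Python 3.11.15, numpy 2.4.6 and pandas 2.3.3 did the rest. From 79.9% to 83.6% of spots per array were well above background. Precision is limited by the number of arrays. A fold against a floor sets the control mean against the mean over LBW arrays of the higher of the probe's own value and the floor. The floor is the lowest value of any probe well above background on that array, and is not a detection limit of the probe itself.

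The members and gene lists were chosen with earlier results of these data known. The genes named are the members, the 5 probes most like each over the arrays and the 5 with group means taken out, and all listed genes past either threshold. Some genes that this rule takes are not reported here. Names come from the study's list of mRNAs alone. Alternatives were another normalization, background correction, filters, tests, blocks and each array left out.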

Additional observations from a re-analysis of the deposited data

How the results depend on the processing

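The direction of Nat8 and Cml3 was the same under every alternative tried, as was fixed by their choice. For Nat8 the log2 difference lay between -1.24 and -1.08 with all arrays, and between -1.23 and -1.01 with 1 array left out. For Cml3 it was -1.93 with normexp background correction, -3.03 with the slide row as a block and -3.03 within row 1 (chosen after seeing the data), and between -2.89 and -2.64 with 1 array left out. The normexp offset of 50 is about the LBW signal of Cml3 and shrinks its difference by construction. Signal over background limits the Cml3 value in LBW rats.

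Counts of calls moved more. In place of 48 probes and 5 proximal tubule genes, limma called 99 and 8 with normexp, 182 and 10 with a trended robust variance, 487 and 12 without normalization between arrays (chosen after seeing the data), 18 and 3 with probes above background on at least 1 array, 3 and 0 with no filter, and 7 and 0 with the slide row as a block. The methods' t-test with Benjamini-Hochberg adjustment gave 2 and 0. With 1 array left out limma called 3 to 25 and 0 or 1. Normexp also lowered the probes past 2-fold and an unadjusted p of 0.05 from 229 to 28. Beside each 0, 12 of the 12 genes were at an unadjusted p under 0.05, the measure that chose them, so nothing is read from it; of all tested probes 5192 of 40349 were with no filter, 2561 of 33608 with the row block and 4705 of 33608 with the t-test. Of the genes of other cell types, limma called 1 with a trended robust variance and 4 without normalization, in place of 0. The causes were not tested.

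With the replicate number as a block, the differences were -1.13 for Nat8 and -2.77 for Cml3. There limma called 0 probes (4839 at an unadjusted p under 0.05), 0 proximal tubule genes (12) and 0 genes of other cell types (4). The deviations from the group means of same-numbered arrays correlated at 0.03, 0.06 and -0.01 across probes. Of the 6 arrays, 3 correlated best with their own number. With 3 arrays per group these values cannot decide whether same-numbered arrays share more than a number. Alternatives were not run for mercapturic acid and other camello genes, which have no named probe.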
